A study of Homo sapiens with 4 samples.

Results

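The genes described here are the nuclear genes of oxidative phosphorylation, the 5 enzyme complexes of the mitochondrial inner membrane, in RD and JR1 rhabdomyosarcoma cells with and without knockdown of SKP2. They were chosen by symbol: NDUFA, NDUFB, NDUFC, NDUFS or NDUFV followed by a number, SDHA to SDHD, any symbol that starts with UQCR or ATP5, and COX4 to COX8. Of the 39323 genes listed, 90 symbols matched, 1 was left out as a numbered pseudogene (UQCRBP1) and 10 were left out for a mean under 1 TPM (transcripts per 1000000, a length-corrected level) over the 4 libraries. The remaining 79 members stood among 12985 genes at or above that mean, here called the tested genes. By complex, 36 members belonged to complex I, 4 to complex II, 9 to complex III, 12 to complex IV and 18 to complex V. NDUFA4 was counted with complex IV, where its protein sits. Of the 79 members, 76 encode subunits, and the others are COX7A2L, which joins complexes into supercomplexes, ATP5IF1, an inhibitor of the ATP synthase, and UQCRHL, a gene copy nearly identical to UQCRH. The 10 under the limit were 6 tissue isoforms of complex IV, ATP5MGL, the readthrough ATP5MF-PTCD1, and the non-coding UQCRB-AS1 and UQCRFS1-DT. The lowest member was UQCRB, at a mean of 4.99 TPM. The highest gene outside was ATP5MGL, at a mean of 0.79 TPM, with 1.6 and 0.54 TPM in RD shSCR and shSKP2.2 and 0.73 and 0.29 TPM in JR1.

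RD and JR1 are established lines of fusion-negative rhabdomyosarcoma (FN-RMS), a muscle-lineage tumour without a PAX-FOXO1 gene fusion, and the labels give both as genotype WT. The paper states that p53 is mutated in both lines. Each line was infected with a lentiviral pLKO.1-puro vector that carried either 1 shRNA against SKP2 (shSKP2.2, written shSKP2 in the sample titles) or a non-targeting shRNA (shSCR), so both groups share the infection and the vector. SKP2 is the substrate-binding subunit of an SCF ubiquitin ligase, and the study asked how its loss affects differentiation, senescence and growth. Each line and condition gave 1 library from poly-A RNA, 4 in all, so differences are given as measured, without a replicate or a p-value, and what is particular to the shRNA, the library or the line cannot be told apart.

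SKP2 itself went from 92.8 (shSCR) to 7.40 TPM in RD and 46.5 to 2.72 TPM in JR1, which is the direction of the labels. The muscle markers MYOD1 (87.0 to 131 TPM over the 4 libraries), MYOG (31.6 to 107 TPM), DES (36.0 to 51.3 TPM) and CHRNA1 (196 to 425 TPM) were present in every library, MYF5 was listed at 0 in all 4, and the 9 epithelial, blood and endothelial markers reached at most 0.38 TPM. The depth is unknown, because read counts cannot be had from TPM. Short structural RNA genes such as RN7SL1 held 58.6% (shSCR) and 69.0% (shSKP2.2) of the TPM in RD, against 66.5% and 72.1% in JR1. The change of a gene was taken within its line as the log2 ratio of shSKP2.2 to shSCR, each as TPM + 1, which understates the change of low genes, and over all tested genes the median was -0.27 (RD) and -0.21 (JR1). With the structural RNA genes removed and the remaining TPM rescaled to the same total, that median was 0.12 (RD) and 0.01 (JR1), a shift of 0.38 and 0.23. Changes are therefore given on the deposited scale and, for groups and some genes, also on this rescaled scale. A small fall given on the deposited scale alone can be a rise on the rescaled scale. Examples are UQCRFS1, at 0.34 (RD) and 0.05 (JR1) rescaled, and NDUFV2, at 0.37 and 0.09. Pairs of TPM are given with shSCR first. In bulk RNA, fewer cells of a type and less RNA per cell cannot be told apart.

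Oxidative phosphorylation passes electrons from NADH and succinate along complexes I, II, III and IV to oxygen, and the protons pumped on the way drive the ATP synthase, complex V. Most subunits are encoded in the nucleus and imported, whereas a small core of complexes I, III, IV and V is encoded by the mitochondrial genome. Skeletal muscle is rich in these enzymes and uses muscle isoforms of several complex IV subunits, which replace the common isoforms as fibres mature. No gene of the mitochondrial chromosome is listed in the tables used here, and the 13 mitochondrially encoded subunits were not analysed.

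As a group, the members moved little and stayed close to the other genes. Their median change was -0.22 (RD) and -0.24 (JR1), beside -0.27 and -0.21 for all tested genes. On the rescaled scale the median was 0.19 (RD) and 0.02 (JR1), so that the direction of the group in both lines depended on the scale. On the deposited scale 65 of the 79 members were lower in RD shSKP2.2, 61 in JR1 shSKP2.2 and 57 in both, while 10 were higher in both. Of the 12985 tested genes, 9738 were lower in RD, 8943 in JR1 and 7933 in both, and 2209 were higher in both. On the rescaled scale 22 members were lower in RD, 38 in JR1 and 18 in both, while 37 were higher in both. Among those tested genes that are not structural RNA genes, the rescaled counts were 5183, 6346 and 4253 lower, and 5593 higher in both. The summed TPM of the members went from 6706 to 5733 in RD and from 6659 to 5723 in JR1. As a share of the TPM outside structural RNAs, the same sums read 1.62% and 1.85% in RD and 1.99% and 2.05% in JR1.

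The SD of the members' changes was 0.38 (RD) and 0.42 (JR1), against 0.57 and 0.64 over all tested genes. Among sets of similar kind it was 0.25 and 0.35 for cytosolic ribosomal proteins, 0.29 and 0.33 for mitochondrial ribosomal proteins and 0.33 and 0.44 for proteasome subunits. The members thus had the largest SD of these 4 sets in RD, but their quartiles in RD (-0.46 and -0.07) were about as far apart as those of 2 of them. These were -0.51 and -0.14 for mitochondrial ribosomal proteins and -0.61 and -0.23 for proteasome subunits, beside -0.49 and -0.23 for cytosolic ribosomal proteins. Past 2-fold on the deposited scale, 3 members fell in RD, where 7.37% of tested genes fell and 1.08% rose, and no member rose. The same 3 fell in JR1, where 9.05% of tested genes fell and 1.78% rose, and 1 member rose. The 3 were ATP5MC1, ATP5IF1 and SDHB, and the member that rose was COX7C, whose change in RD of 0.98 lay just under the limit of 1. Relative to the median tested gene, COX7C passed 2-fold upward in both lines (background 2.09% in RD, 2.99% in JR1), ATP5MC1 passed downward in both and ATP5IF1 in JR1 only (background 3.53% and 5.47%). On the rescaled scale the members past the limit were the same ones, with 4.45% and 4.91% of tested genes up and 3.47% and 7.51% down in RD and JR1. With a limit of 1.5-fold, 11 members were past it downward in RD and 10 in JR1, against 23.2% and 23.4% of tested genes, and COX7C alone was past it upward in each line, against 3.2% and 5.31%.

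**Figure D1:**
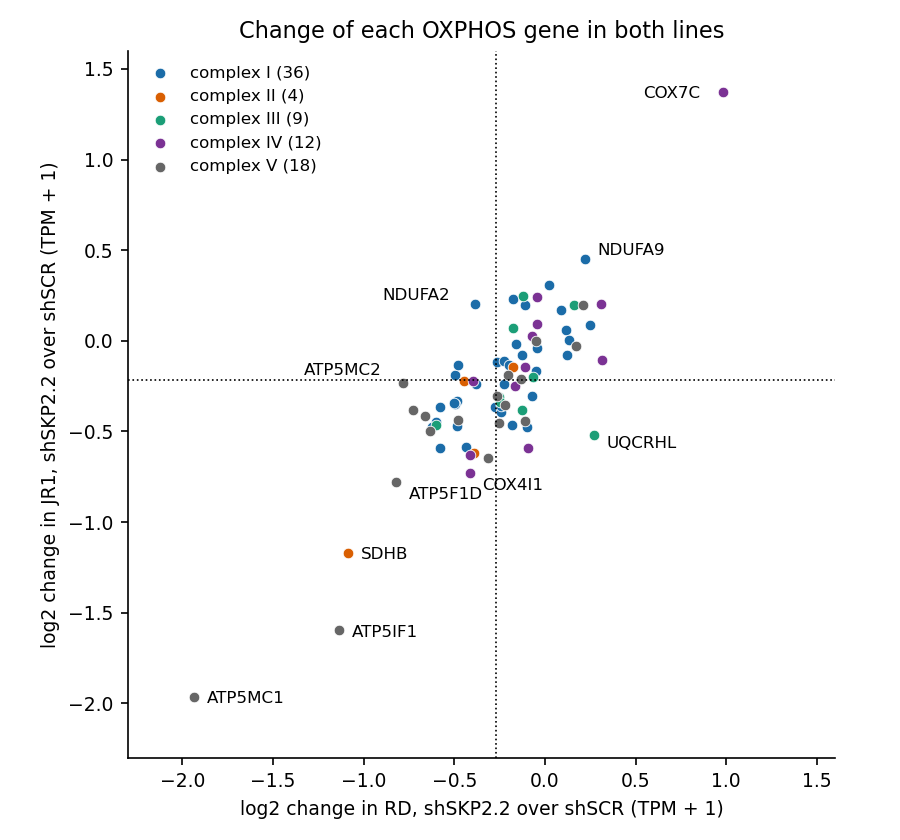
Log2 change of TPM + 1 (shSKP2.2 over shSCR) of each of the 79 members in RD (x axis) and JR1 (y axis), 1 point per gene, coloured by complex, with dotted lines at the medians of all tested genes (-0.27 and -0.21). Most points crowd around the crossing of the dotted lines, ATP5MC1, ATP5IF1 and SDHB lie to the lower left and COX7C to the upper right.

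The changes of the members in the lines ran alike. Across the 79 members the changes in RD and JR1 had a Pearson correlation of 0.82 and a Spearman correlation of 0.68, beside 0.62 and 0.70 across all tested genes; genes are not independent replicates, and members of a line share its libraries. Without ATP5MC1, ATP5IF1, SDHB and COX7C the correlations over the other 75 members were 0.61 and 0.63, and their changes ran from -0.82 to 0.31 in RD and from -0.78 to 0.45 in JR1. The order of the members by TPM was kept between libraries, with Spearman correlations from 0.941 to 0.983, the highest between libraries of the same condition (0.983 for the shSCR pair and 0.979 for the shSKP2.2 pair).

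ATP5MC1 was the member with the largest change. It is one of the 3 genes for subunit c of the ATP synthase, the subunit of the proton-turned ring in the membrane, and their mature proteins are the same. The gene lies at chr17:48892787-48895871 on GRCh38 in the files. Its level went from 43.8 to 10.7 TPM in RD and 42.4 to 10.1 TPM in JR1, a fall of 4.09-fold and 4.19-fold in TPM. Its change was -1.93 (RD) and -1.97 (JR1) on the deposited scale, and -1.59 and -1.78 on the rescaled scale. The lines were nearly equal in each condition.

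ATP5IF1 encodes the inhibitor that binds the ATP synthase and blocks ATP hydrolysis when the membrane potential is lost. At chr1:28236124-28238100, it stood at 28.3 TPM with shSCR and 12.3 TPM with shSKP2.2 in RD, and at 24.1 and 7.30 TPM in JR1. The change was -1.13 (RD) and -1.60 (JR1), or -0.76 and -1.43 rescaled. Of the 4 libraries, JR1 shSKP2.2 was the lowest.

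SDHB carries the iron-sulfur clusters that pass electrons from the flavin of SDHA to the membrane part of complex II. It lies at chr1:17018722-17054032. Its TPM were 47.2 and 21.7 in RD and 47.1 and 20.4 in JR1, so that the lines were nearly equal in both conditions. The change was -1.09 (RD) and -1.17 (JR1), or -0.69 and -0.93 rescaled, which is under 2-fold.

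COX7C, a small membrane subunit of complex IV, moved the other way. At chr5:86617941-86620962, it stood at 41.0 TPM with shSCR and 82.0 TPM with shSKP2.2 in RD, and in JR1 it rose 2.65-fold in TPM, to 73.1 TPM over 27.6 TPM. Its change was 0.98 (RD) and 1.38 (JR1), or 1.41 and 1.66 rescaled. None of these 4 genes overlaps another tested gene in the coordinates of the files.

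The promoters of these 4 genes are shown because the genes stood apart from the rest of their complexes in both lines. That of SDHD, a partner of SDHB, is shown beside them for its 5 motif matches. Each is given 5′ to 3′ on the strand of the gene, from 250 bases before the start to 30 bases after it, from RefSeq on GRCh38.p14. Capitals mark the motif letters searched on both strands.
ATP5MC1, chr17:48892537-48892816, plus strand: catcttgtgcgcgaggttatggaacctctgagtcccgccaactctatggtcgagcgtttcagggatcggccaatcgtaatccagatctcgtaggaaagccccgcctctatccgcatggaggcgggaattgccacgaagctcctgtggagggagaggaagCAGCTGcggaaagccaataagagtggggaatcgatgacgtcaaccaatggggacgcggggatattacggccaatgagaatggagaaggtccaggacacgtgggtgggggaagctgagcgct
ATP5IF1, chr1:28235874-28236153, plus strand: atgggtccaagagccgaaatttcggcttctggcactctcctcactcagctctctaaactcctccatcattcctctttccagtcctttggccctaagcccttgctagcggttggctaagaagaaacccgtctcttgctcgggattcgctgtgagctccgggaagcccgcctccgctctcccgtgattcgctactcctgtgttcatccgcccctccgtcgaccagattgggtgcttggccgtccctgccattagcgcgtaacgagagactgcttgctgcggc
SDHB, chr1:17054003-17054282, minus strand: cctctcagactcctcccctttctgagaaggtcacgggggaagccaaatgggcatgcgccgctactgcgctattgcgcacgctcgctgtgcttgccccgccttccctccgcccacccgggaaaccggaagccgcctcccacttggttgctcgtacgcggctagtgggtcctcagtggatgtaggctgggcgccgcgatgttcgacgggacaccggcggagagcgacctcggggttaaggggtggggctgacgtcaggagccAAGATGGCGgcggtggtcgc
SDHD, chr11:112086623-112086902, plus strand: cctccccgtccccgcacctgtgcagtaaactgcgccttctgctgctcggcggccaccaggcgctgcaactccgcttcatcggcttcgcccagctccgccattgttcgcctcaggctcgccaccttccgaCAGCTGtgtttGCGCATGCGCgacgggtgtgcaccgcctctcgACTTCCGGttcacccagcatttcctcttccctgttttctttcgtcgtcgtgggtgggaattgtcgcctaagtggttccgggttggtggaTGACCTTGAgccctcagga
COX7C, chr5:86617691-86617970, plus strand: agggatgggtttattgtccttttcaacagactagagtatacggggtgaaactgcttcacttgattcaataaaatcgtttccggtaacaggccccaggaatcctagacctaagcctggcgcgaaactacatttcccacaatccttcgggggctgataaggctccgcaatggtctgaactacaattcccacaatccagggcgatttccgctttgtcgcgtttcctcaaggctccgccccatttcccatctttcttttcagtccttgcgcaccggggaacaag
The ATP5MC1 stretch holds the E-box CAGCTG at position -91 (the first base of the match, with +1 at the start of the gene). In SDHB the letters AAGATGGCG of YY1 begin at +11. The SDHD stretch holds CAGCTG at -121, the NRF1 letters GCGCATGCG on both strands in overlapping matches from -110 and -109, CCGGAAGT of the ETS factors on the reverse strand at -78 and TCAAGGTCA of the estrogen-related receptors on the reverse strand at +12. ATP5IF1 and COX7C hold none of the 5 motifs in this window, which says only that these letters are not there.

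Over all members, a promoter entry was matched for 65 of 79, and for 10090 of the tested genes. GCGCATGCG, the letters bound by nuclear respiratory factor 1 (NRF1), stood in 10 of the 65 members (15.4%) and in 3.77% of all tested promoters. CCGGAAGT, bound by ETS factors such as GABPA, stood in 10 members (15.4%) and 9.19% of tested promoters, and AAGATGGCG of YY1 in 8 members (12.3%) and 4.004%. TCAAGGTCA stood in 1 member (SDHD, 1.54%, against 0.198%), and CAGCTG in 13 members (20%, against 17.2%). The median change was -0.28 (RD) and -0.16 (JR1) for the 10 members with the NRF1 letters, and -0.24 and -0.24 for the other members with a promoter entry. It was -0.35 and -0.36 with the ETS letters against -0.23 and -0.19 without, and -0.27 and -0.17 with the YY1 letters against -0.24 and -0.23 without. For the 13 members with CAGCTG it was -0.23 and -0.33, against -0.25 and -0.23 without. Over all tested genes with the letters, the medians were -0.25 and -0.15 (NRF1), -0.28 and -0.18 (ETS), -0.25 and -0.14 (YY1) and -0.27 and -0.22 (CAGCTG). None of these differences was tested. The promoters of the members had a median GC content of 61%, against 65.3% for the tested genes. No factor binding was measured in these libraries.

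Complex II, succinate dehydrogenase, feeds electrons from the citric acid cycle and is the only complex made wholly of nuclear subunits. Its median change was -0.42 in both lines, the lowest of the 5 complexes in each, and -0.01 (RD) and -0.16 (JR1) on the rescaled scale. SDHA, the flavoprotein that oxidises succinate, stood at 35.0 and 30.8 TPM in RD and 27.3 and 24.5 TPM in JR1. The membrane anchors were SDHC, at 73.8 and 53.9 TPM in RD and 59.6 and 51.0 TPM in JR1, and SDHD, at 43.97 and 33.3 TPM in RD and 51.3 and 33.1 TPM in JR1. SDHA changed by -0.18 (RD) and -0.15 (JR1), SDHC by -0.45 and -0.22, and SDHD by -0.39 and -0.62, so all 4 genes were lower on the deposited scale. SDHA was higher on the rescaled scale in both lines (0.23 and 0.11), whereas SDHB remained the lowest of the 4 on each scale.

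A ratio of 2 genes in the same library does not depend on the scaling. SDHB stood at 1.35 times SDHA with shSCR and 0.704 times with shSKP2.2 in RD, and at 1.73 and 0.831 times in JR1. Both shSKP2.2 libraries thus had less SDHB than SDHA and both shSCR libraries had more. In RD, SDHB made up 23.6% (shSCR) and 15.5% (shSKP2.2) of the summed TPM of complex II, and in JR1 25.4% and 15.8%. The share of SDHA went from 17.5% to 22.1% in RD and from 14.7% to 19.01% in JR1. SDHA has 3 listed pseudogenes, whose summed TPM were 8.74 and 6.62 in RD and 4.16 and 4.6 in JR1, and how shared reads were divided between them and SDHA was not tested.

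**Figure D2:**
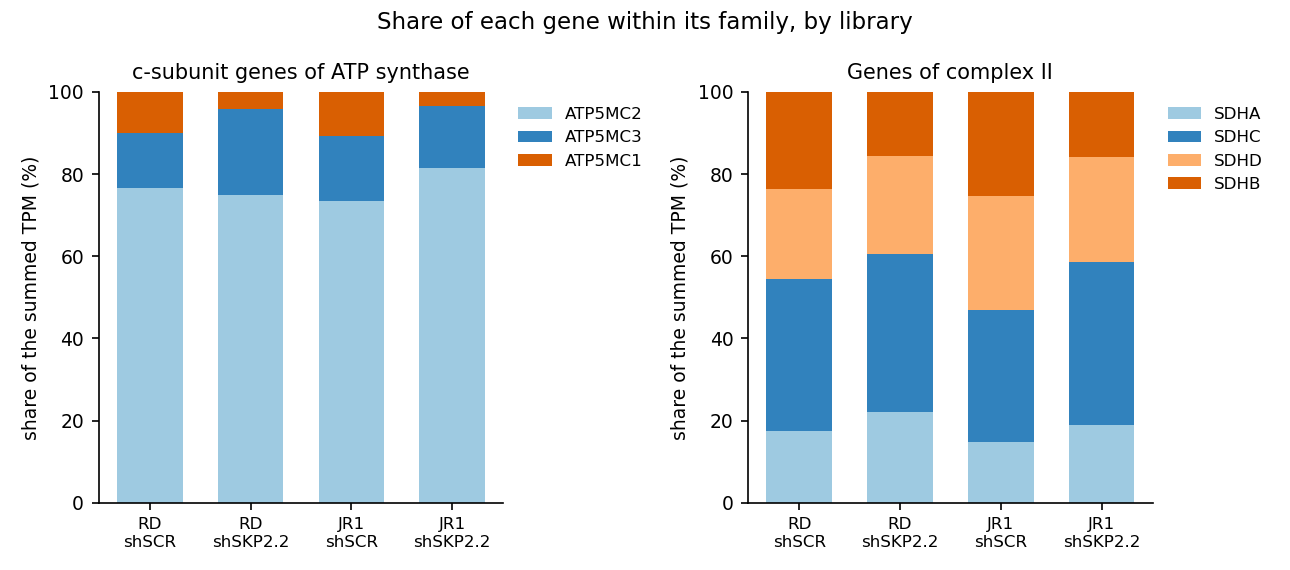
Share of each gene in the summed TPM (%) of the 3 c-subunit genes of the ATP synthase (left) and of the 4 complex II genes (right), stacked to 100% for each of the 4 libraries. In both lines the ATP5MC1 and SDHB segments are smaller in shSKP2.2 (4.10% and 3.31% for ATP5MC1, 15.5% and 15.8% for SDHB) than in shSCR.

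Complex V, the ATP synthase, consists of the catalytic F1 head, a peripheral stalk and the membrane part with the c ring. Its 18 members had a median change of -0.29 (RD) and -0.40 (JR1), or 0.12 and -0.14 rescaled, the second lowest of the complexes in both lines on the deposited scale. Within the head, the subunits of the catalytic ring moved in opposite directions on the deposited scale. ATP5F1B, the catalytic beta subunit and the highest member of all, went from 342 to 396 TPM in RD and 334 to 383 TPM in JR1, while the alpha subunit ATP5F1A went from 155 to 133 TPM and from 152 to 118 TPM. The change was 0.21 and 0.20 for ATP5F1B and -0.22 and -0.36 for ATP5F1A. Rescaled, ATP5F1B was at 0.63 (RD) and 0.46 (JR1) and ATP5F1A at 0.20 and -0.09, so both were above 0 in RD. On any scale, ATP5F1A over ATP5F1B went from 0.454 to 0.336 in RD and from 0.454 to 0.309 in JR1. The proteins form the head in equal number. Of the shaft subunits, ATP5F1D (delta) stood at 94.9 and 53.4 TPM in RD and at 100.2 and 57.9 TPM in JR1, a change of -0.82 and -0.78, and ATP5F1C (gamma) changed by -0.73 and -0.38. ATP5F1E (epsilon), the lowest member of complex V, stood at 12.1 and 9.96 TPM in RD and 15.9 and 11.4 TPM in JR1. Its locus overlaps the readthrough gene SLMO2-ATP5E, which was listed higher than ATP5F1E itself in all 4 libraries (12.2 to 23.3 TPM), so the division of reads between them is uncertain.

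In the c ring, ATP5MC2 supplied most of the RNA. It stood at 337 and 196 TPM in RD and at 293 and 249 TPM in JR1, whereas ATP5MC3 stood at 59.1 and 54.8 TPM and at 63.5 and 46.5 TPM. The change of ATP5MC2 was -0.78 (RD) and -0.23 (JR1), 1 of the 3 widest differences between the lines among the members, and that of ATP5MC3 was -0.11 and -0.44. The 3 genes summed to 440.0 and 261 TPM in RD and 399 and 306 TPM in JR1. Of this sum ATP5MC1 held 9.95% with shSCR and 4.10% with shSKP2.2 in RD, and 10.6% and 3.31% in JR1. ATP5MC3 held 13.4% and 21.0% in RD and 15.9% and 15.2% in JR1, above ATP5MC1 in every library.

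The peripheral stalk, which holds the head still against the turning ring, had 4 members with changes from -0.63 to -0.05 in RD and from -0.49 to 0.00 in JR1. ATP5PF, at 61.2 and 59.0 TPM in RD and 67.0 and 66.9 TPM in JR1, was the member of the stalk nearest to 0, and ATP5PD, at 116 and 74.1 TPM and 141 and 99.6 TPM, the lowest. The 5 other membrane subunits, which shape the dimers of the enzyme, had a median change of -0.31 (RD) and -0.41 (JR1), and none was higher in both lines. ATP5MK went from 219 to 176 TPM in RD and 257 to 164 TPM in JR1, and ATP5MJ was at 51.2 and 57.9 TPM and at 59.6 and 58.5 TPM.

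**Figure D3:**
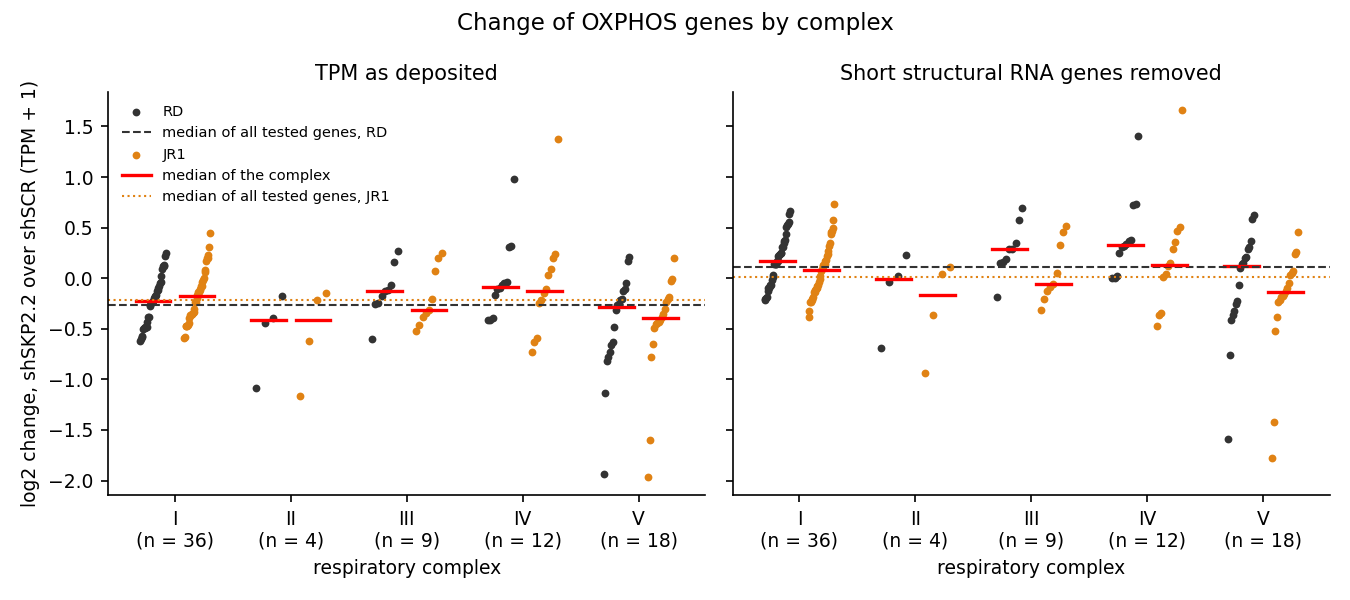
Log2 change of TPM + 1 (shSKP2.2 over shSCR) of the members by complex, RD in dark grey and JR1 in orange, 1 point per gene, on the deposited scale (left) and with short structural RNA genes removed (right). Red bars are complex medians, and the dashed and dotted lines are the medians of all tested genes in RD and JR1; all complex medians lie below 0 on the left and on both sides of 0 on the right.

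Complex IV, cytochrome c oxidase, reduces oxygen to water with a core encoded by the mitochondrial genome, and the nuclear subunits surround that core. Its 12 members had the median nearest to 0 of the 5 complexes on the deposited scale, -0.08 (RD) and -0.12 (JR1). Rescaled, it was 0.33 and 0.13, the farthest from 0 of the 5 in RD and not the nearest in JR1. The median of complex IV held members that moved apart. COX4I1, which is needed early in assembly and binds ATP, went from 185 to 139 TPM in RD and 198 to 119 TPM in JR1. COX6B1, on the outer face, went from 323 to 243 TPM and from 327 to 211 TPM. Their changes were -0.41 in RD for both genes and -0.73 and -0.63 in JR1, and on the rescaled scale they were 0.00 and 0.01 in RD and -0.47 and -0.37 in JR1. COX6A1, the highest gene of complex IV, went from 278 to 345 TPM in RD and 324 to 373 TPM in JR1, a change of 0.31 and 0.20. COX6A1 over COX6B1 went from 0.861 to 1.42 in RD and from 0.990 to 1.77 in JR1, so the order of these 2 genes turned in both lines. COX7C over COX4I1 went from 0.222 to 0.591 in RD and from 0.139 to 0.613 in JR1.

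Of the other complex IV genes, COX8A was at 328 and 249 TPM in RD and 262 and 225 TPM in JR1, and COX7A2 at 199 and 184 TPM and 250.1 and 226 TPM. COX7B, the lowest gene of the complex, was at 12.9 and 16.3 TPM in RD and 14.7 and 13.6 TPM in JR1. These 3 genes have tissue isoforms, as do COX4I1, COX6A1 and COX6B1, and in each pair the common isoform held nearly all of the TPM. The muscle and heart isoform COX7A1 was listed at 0 in all 4 libraries, as were COX4I2, the lung isoform, and COX7B2. COX6A2, the other muscle and heart isoform, was listed at 0.38 TPM with shSCR and 0 with shSKP2.2 in RD, and at 0 and 1.24 TPM in JR1, at most 0.331% of the COX6A pair. COX6B2 and COX8C, which are testis isoforms, reached at most 0.53 and 0.13 TPM. The muscle isoforms were thus at or near 0 in libraries where MYOG, a factor of muscle differentiation, went from 31.6 to 58.4 TPM in RD and 54.0 to 107 TPM in JR1. The other muscle markers did not all move that way. CHRNA1 changed by 0.67 (RD) and 0.58 (JR1), CDH15 by 0.33 and 0.38 and MYOD1 by 0.11 and 0.38. DES changed by 0.14 in RD and by -0.50 in JR1, and MYF5 was at 0.

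**Figure D4:**
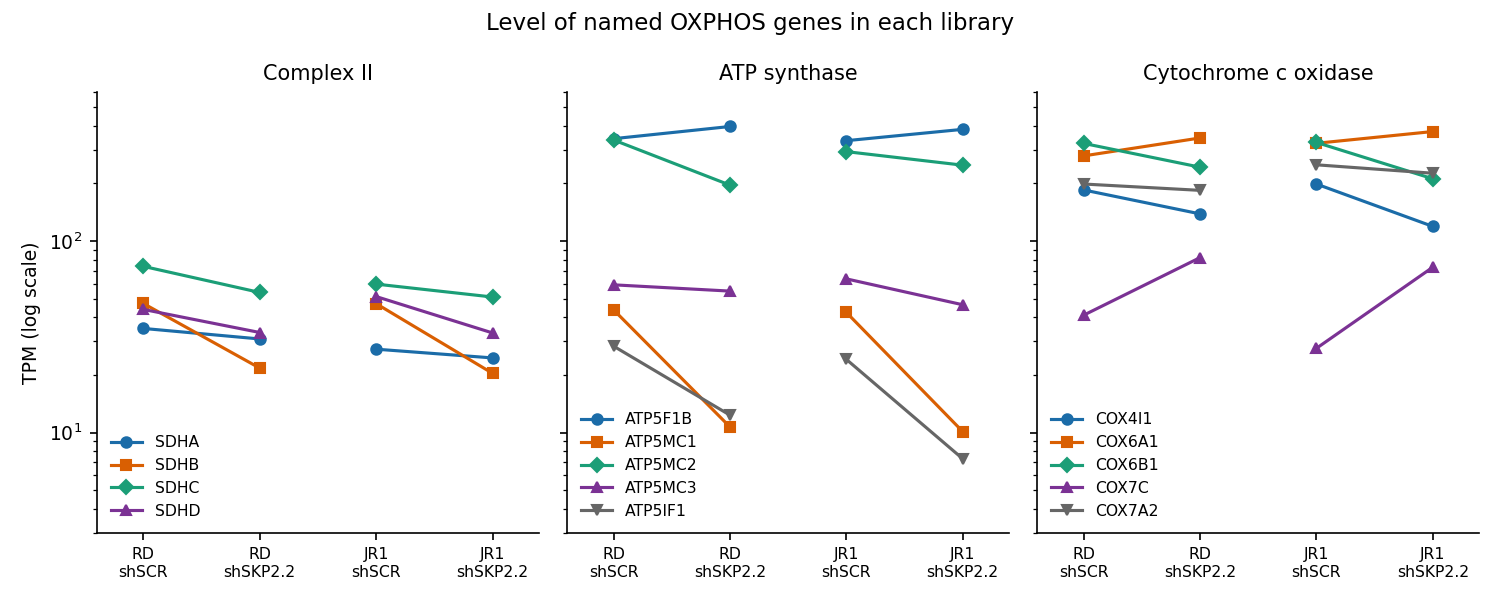
TPM on a log axis of named genes of complex II (left), the ATP synthase (middle) and cytochrome c oxidase (right) in the 4 libraries, with a line from shSCR to shSKP2.2 within each line, 1 library per point. SDHB, ATP5MC1 and ATP5IF1 slope down and COX7C slopes up in both lines, while SDHA and COX7A2 run nearly level.

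Complex I, NADH dehydrogenase, is the largest of the complexes and takes electrons from NADH. Its 36 members had a median change of -0.22 (RD) and -0.18 (JR1), or 0.17 and 0.08 rescaled, and none passed 2-fold in either line on any of the 3 scales. The 7 nuclear core subunits, which hold the flavin and the iron-sulfur clusters or bind quinone, had a median of -0.50 (RD) and -0.34 (JR1), against -0.22 and -0.14 for the 29 supernumerary subunits, which surround the core. On the rescaled scale the medians were -0.09 and -0.08 for the core and 0.17 and 0.12 for the others. No test of this difference was made. NDUFS1, the largest iron-sulfur subunit of the core, was the lowest of complex I by the mean change of the lines, with 16.3 and 10.6 TPM in RD and 10.7 and 6.78 TPM in JR1 (-0.58 and -0.59). NDUFV1, which holds the flavin that accepts electrons from NADH, was at 52.5 and 33.7 TPM in RD and 52.7 and 37.7 TPM in JR1 (-0.63 and -0.47).

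Further core subunits divided in their values. NDUFS8, an iron-sulfur subunit near the membrane, changed by -0.60 (RD) and -0.45 (JR1), and NDUFS7, which holds the last cluster before quinone, by -0.50 and -0.34. NDUFV2, the iron-sulfur partner of NDUFV1, changed by -0.05 and -0.17. NDUFS3 was at 50.4 and 55.5 TPM in RD and 49.9 and 50.1 TPM in JR1, and its change was above 0 in both lines (0.14 and 0.01). Among the supernumerary subunits, 20 of 29 were lower and 5 higher in both lines on the deposited scale, beside 7933 and 2209 of the 12985 tested genes. NDUFA9, which lies near the quinone site, had the highest mean change of complex I, from 8.84 to 10.5 TPM in RD and 8.19 to 11.6 TPM in JR1 (0.22 and 0.45). NDUFA13 was the most abundant gene of the complex by TPM, at 329 and 235 TPM in RD and 296 and 235 TPM in JR1, and NDUFA5 the least, at 4.52 to 5.90 TPM. NDUFA2, a small supernumerary subunit, went from 27.1 to 20.5 TPM in RD and 26.5 to 30.7 TPM in JR1 (-0.39 and 0.20), 1 of the 3 members whose changes differed most between the lines. On the rescaled scale NDUFA2 stood at 0.01 (RD) and 0.47 (JR1).

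Complex III passes electrons from ubiquinol to cytochrome c. Its 9 members had a median change of -0.13 (RD) and -0.31 (JR1), or 0.29 and -0.05 rescaled. UQCRC1, a core protein on the matrix side, went from 84.8 to 55.7 TPM in RD and 68.1 to 49.0 TPM in JR1 (-0.60 and -0.47), and its partner UQCRC2 from 57.7 to 48.2 TPM and from 57.2 to 45.9 TPM (-0.25 and -0.31). The Rieske iron-sulfur protein UQCRFS1 was at 25.8 and 24.6 TPM in RD and 24.6 and 21.3 TPM in JR1 (-0.07 and -0.20). UQCRH, the hinge protein and the highest of the complex, was above 0 in both lines, from 182 to 203 TPM in RD and 176 to 201 TPM in JR1 (0.16 and 0.20). UQCRB, the lowest, was at 4.71 to 5.46 TPM. UQCRHL, the copy of UQCRH, went from 6.86 to 8.49 TPM in RD and 9.41 to 6.25 TPM in JR1 (0.27 and -0.52); its values are uncertain because reads of UQCRH could be assigned to it.

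The lines were near each other in these genes. JR1 over RD had a median log2 ratio over the members of -0.04 in shSCR and -0.05 in shSKP2.2, beside -0.23 and -0.17 for all tested genes, and of 0.26 and 0.10 on the rescaled scale. Relative to the tested genes, the members thus stood 0.19 higher in JR1 in shSCR and 0.12 higher in shSKP2.2. On the deposited scale no member differed by 2-fold between the lines in either condition, where 3.45% of tested genes were higher and 6.5% lower in JR1 shSCR, and 2.7% higher and 5.39% lower in JR1 shSKP2.2. ATP5MF, a membrane subunit of the ATP synthase, had the highest ratio, at 124 TPM in RD and 192 TPM in JR1 with shSCR and 77.8 and 144 TPM with shSKP2.2 (0.63 and 0.88). Relative to the median tested gene the ratios of ATP5MF were 0.86 and 1.05, and on the rescaled scale 0.93 and 1.03, so on both it was past 2-fold with shSKP2.2 and was the 1 member past the limit. The background relative to the median was 5.06% of tested genes higher and 3.81% lower with shSCR, and 3.7% and 3.54% with shSKP2.2. Rescaled, it was 6.99% and 4.71% with shSCR, and 4.96% and 6.28% with shSKP2.2. On the deposited scale NDUFB11 was the lowest in shSCR, at 128 TPM in RD and 86.7 TPM in JR1 (-0.56), and ATP5IF1 in shSKP2.2 (-0.68).

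The assembly factors of the complexes stayed close to the members by their median. Of 53 assembly factors, 52 were tested, with a median change of -0.23 (RD) and -0.29 (JR1), or 0.12 and -0.04 rescaled. Past 2-fold, 2 of them fell in RD and 4 in JR1, against the same background of 7.37% and 9.05%, and none rose. The 2 that fell in both lines were TIMMDC1 and PET100, and those in JR1 only were COA1 and TMEM70 (-1.27 and -1.06). On the rescaled scale PET100 was under the limit in JR1 (-0.97), and SCO2 rose past it in RD (1.41), where 4.45% of tested genes rose on that scale. TIMMDC1, which builds the membrane arm of complex I, fell from 23.5 to 5.29 TPM in RD and 30.7 to 4.47 TPM in JR1 (-1.96 and -2.53), a larger change than that of any member in either line. PET100, a chaperone of complex IV assembly, fell from 23.6 to 5.79 TPM and from 19.6 to 8.18 TPM (-1.86 and -1.16). By the mean of the lines the highest was NDUFAF4, a complex I factor, at 7.21 and 8.02 TPM in RD and 6.02 and 9.96 TPM in JR1 (0.14 and 0.64). SCO2, a copper chaperone of complex IV, was highest in RD, at 9.01 and 18.5 TPM (0.96), and stood at 19.1 and 15.2 TPM in JR1 (-0.31).

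Of 28 regulators of mitochondrial gene expression, 25 were tested, with a median of -0.26 (RD) and -0.19 (JR1), and 2 fell past 2-fold in RD (YY1 and, at the limit, PPARA) and 1 in JR1 (YY1), against 7.37% and 9.05% of all tested genes. On the deposited scale the lowest was YY1, from 19.8 to 9.31 TPM in RD and 15.7 to 7.37 TPM in JR1 (-1.01 in RD and at the limit in JR1). Rescaled, YY1 was at -0.65 (RD) and -0.81 (JR1) and PPARA at -0.92 in RD, so both were under the limit. YY1 is a zinc-finger factor of many mitochondrial genes. The highest regulator was ESRRA, a nuclear receptor of energy genes, at 9.74 and 13.7 TPM in RD and 8.96 and 13.9 TPM in JR1 (0.45 and 0.58). All 19 genes of the citric acid cycle and its entry were tested, with a median of -0.32 (RD) and -0.20 (JR1) and, against the same shares, 1 fall past 2-fold in RD, SUCLG2 of succinyl-CoA ligase (-1.41, and -0.87 in JR1). By the mean of the lines its highest gene was IDH3B of isocitrate dehydrogenase (-0.17 and 0.26), while FH was highest in RD (0.01) and IDH2 in JR1 (0.30). Of 24 genes of glycolysis and pyruvate entry, 22 were tested, with a median of -0.35 and -0.38. Past 2-fold, 3 fell in both lines (PFKL, PFKP and the lactate exporter SLC16A3), again beside 7.37% and 9.05% of tested genes. PDK1 rose in JR1, where 1.78% rose. Rescaled, PFKL, PFKP and SLC16A3 were at -0.69, -0.81 and -0.70 in RD, all under the limit. In JR1 they were at -0.80, -1.09 and -0.79, so PFKP alone stayed past it. Upward on that scale, PDK1 was past it in both lines (1.12 and 1.40) and SLC2A1 in JR1 (1.12). The rescaled shares of all tested genes were 4.45% up and 3.47% down in RD, and 4.91% up and 7.51% down in JR1. The lowest glycolysis gene was the phosphofructokinase PFKP, from 35.0 to 14.8 TPM in RD and 24.3 to 9.38 TPM in JR1 (-1.19 and -1.28). The highest was PDK1, which shuts pyruvate dehydrogenase, from 7.39 to 12.4 TPM and from 5.02 to 11.5 TPM (0.67 and 1.06). Rescaled medians were 0.13 (RD) and 0.04 (JR1) for the regulators, 0.09 and 0.05 for the citric acid cycle and 0.06 and -0.13 for glycolysis. Other large sets of housekeeping subunits had medians of -0.34 (RD) and -0.09 (JR1) for 81 cytosolic ribosomal proteins, -0.30 and -0.20 for 78 mitochondrial ribosomal proteins and -0.38 and -0.38 for 37 proteasome subunits, so the median of the members was above all 3 in RD and between them in JR1.

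The members share short transcripts. Their median annotated transcript length in GENCODE 44 was 758 bases (276 to 11660), against 3208 bases for the tested genes, and the correlation of log length with change across the members was 0.09 (RD) and 0.12 (JR1). The 39 shorter members had a median change of -0.24 in both lines, and the 526 tested genes of the same lengths -0.33 and -0.31. The 40 longer members had -0.21 and -0.23, and the 11485 tested genes of their lengths -0.28 and -0.22. They lie on 22 chromosomes, with 10 members (12.7%) on chromosome 19, which holds 7.29% of the tested genes. In the coordinates of the files 14 of the 79 members overlapped another tested gene, so reads may be divided differently there. Of the members named above, these were ATP5F1E, NDUFA2 (with TMCO6, at 1.45 to 4.16 TPM), ATP5MK, ATP5PD, ATP5PF, NDUFB11 and UQCRC1. ATP5PF overlaps GABPA, a subunit of the ETS factor GABP, and beside the level values of ATP5PF, GABPA went from 9.21 to 4.93 TPM in RD and 7.93 to 4.26 TPM in JR1 (-0.78 and -0.76).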

How the data were processed

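RD and JR1 cells carrying shSCR or shSKP2.2 gave 1 RNA-seq library each per condition. Column-purified RNA was poly-A selected and turned into strand-marking libraries, which were read from both ends. The authors used STAR 2.7.9a on GRCh38 and RSEM 1.3.2. TPM were deposited to 2 decimals and total 1000000 per library. The annotation release and strand setting were not given in the sources used here. TPM keep no counts, so depth, counting intervals and floors cannot be given.

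TPM were used as deposited. Changes were log2 ratios of TPM + 1 (pseudocount 1), genes whose mean reached 1 TPM were tested, and a change of 1 (2-fold) counted as called, with no p-value because there are no replicates. The alternatives were a pseudocount of 0.1 TPM, changes taken relative to the median tested gene, removal of 1053 short structural RNA genes by symbol (which left 15228 tested genes), a minimum mean of 5 TPM or only above 0 TPM, a limit of 1.5-fold, and leaving out genes that are not subunits.

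The members, the lists and the markers were chosen with earlier results of these data known. Named by rule were members past 2-fold, the highest and lowest of each complex by level and by change, the 3 that differed most between the lines, the isoform pairs, the c-subunit genes, the catalytic core subunits and the ends of each related list. Any other gene named was chosen after its values were seen. The values of 1 gene that the rule would name are not reported here. The lists of assembly factors, regulators, the citric acid cycle and glycolysis were written from general knowledge.

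Transcript lengths came from GENCODE 44 (79 of 79 members) and promoters from the RefSeq table of GRCh38.p14 (65 of 79), searched for GCGCATGCG, CCGGAAGT, AAGATGGCG, TCAAGGTCA and CAGCTG on both strands. The scripts were tested on simulated data. All steps ran in Python 3.11.15 (numpy 2.4.6, pandas 2.3.3, matplotlib 3.10.9).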

Additional observations from a re-analysis of the deposited data

Results flagged for a closer look

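UQCRHL, the copy of UQCRH, was the only member picked out because its change lay on opposite sides of 0 in the lines on all 3 scales. It was 0.27 in RD and -0.52 in JR1 on the deposited scale and 0.69 and -0.31 on the rescaled scale. With 1 library per line and condition the difference was not tested. UQCRH itself was at 0.16 and 0.20, and the part that reads of UQCRH play in the values of UQCRHL was not tested.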

How the results depend on the processing

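The cause of each move was not tested. Relative to the median tested gene, the median change of the members was 0.0505 in RD and -0.0226 in JR1, 30 members were lower in RD and 27 in both lines, 1 fell and 1 rose past 2-fold in RD, and the median of JR1 over RD was 0.19 in shSCR and 0.12 in shSKP2.2. By the same measure 6492 of the 12985 tested genes were lower in RD and 4927 in both lines. With the structural RNA genes removed, the medians were 0.192 in RD and 0.0218 in JR1, 22 members were lower in RD, 38 in JR1 and 18 in both, 1 fell and 1 rose past 2-fold in RD, and the lines differed by 0.26 in shSCR and 0.10 in shSKP2.2. Over all genes above 0 TPM the medians were -0.20 and -0.23, JR1 over RD -0.0343 and -0.0374, and 2 members rose in JR1, the second being COX6A2 from a value of 0. With a limit of 1.5-fold, 11 members fell in RD and 10 in JR1, and 1 rose in RD. The 7 changes called among the members kept their sign in each alternative that gives them a new value. The shifts between scales were smaller than a change of 1, so a kept sign says little. Not all stayed past 2-fold. At their smallest, ATP5IF1 was at -0.76 in RD, and SDHB at -0.69 in RD and -0.93 in JR1. ATP5MC1 stayed between -2.02 and -1.59 in RD and between -2.06 and -1.75 in JR1. Removal of mitochondrial-genome genes was not run because none is listed, and no replicate could be left out. No paired analysis was possible because each group has 1 library and no test was made. Depth is unknown, so the precision of low values is unknown too.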
